A study of Mus musculus with 4 samples.

Results

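Col1a1, Col1a2, Col3a1, Sparc and Fn1 are 5 genes of the extracellular matrix, and their mRNA 3′ ends were described from every read on the gene's strand inside a fixed mm9 window for each gene. The windows lie on chromosome 11 from 94797000 to 94815500, plus strand (Col1a1, ENSMUSG00000001506.10), chromosome 6 from 4455000 to 4492500, plus strand (Col1a2, ENSMUSG00000029661.16), chromosome 1 from 45368000 to 45407500, plus strand (Col3a1, ENSMUSG00000026043.18), chromosome 11 from 55207000 to 55234500, minus strand (Sparc, ENSMUSG00000018593.13), and chromosome 1 from 71631500 to 71700500, minus strand (Fn1, ENSMUSG00000026193.15). They hold 31 of the 56206 cleavage clusters of the series, a cluster being positions on a strand chained at gaps of at most 24 nt with 3 or more reads over both libraries. No mm9 annotation was used, so the names rest on the window coordinates, and exon, intron or UTR of a site was not assigned. The windows span 18500, 37500, 39500, 27500 and 69000 nt in that order of genes, beside gene lengths of 16819, 36731, 38169, 28684 and 67681 nt in GENCODE vM21, a release on another build. By length, then, the Sparc window is shorter than the longest annotated span of that gene.

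The series holds 2 libraries of 3'READS, which sequences poly(A)-containing fragments to find where an mRNA was cleaved, and 2 CLIP replicates of CstF64, the subunit of the cleavage stimulation factor that binds U- and GU-rich RNA beside poly(A) sites. Both 3'READS libraries were made from 1 RNA pool of 11 mouse cell lines, sold by Agilent, so a level is that of the pool and cannot be assigned to a line, nor can few expressing cells be told apart from little RNA per cell. One library was captured with CU5T45, a biotinylated oligo of 5 U and 45 T, with formamide washes and release by RNase H, and the other with oligo(dT)10-25 beads. CLIP was done on C2C12, a mouse myoblast line, UV-irradiated while proliferating in 3 dishes, with no control library among the samples used.

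Collagens are secreted as triple helices that assemble into fibrils and give tissues their tensile strength. Type I collagen, the main fibrillar collagen of bone, tendon and skin, is built of alpha 1 chains from Col1a1 and alpha 2 chains from Col1a2, and type III collagen, a homotrimer, of chains from Col3a1. Fn1 encodes fibronectin, a glycoprotein that links integrins on the cell surface to matrix fibrils, and Sparc encodes osteonectin, a matricellular protein that binds collagen and calcium. Many vertebrate genes have several poly(A) sites in tandem, and the choice among them sets the length of the 3′ UTR.

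Read totals were 6738355 for CU5T45 and 3482826 for oligo(dT)10-25. Since each oligo was used for 1 library only, the spread between replicates is unknown, no p-value is given, and intervals cover counting error only. PCR copies are not independent molecules, which makes these intervals too narrow. Each 3'READS read marks 1 captured 3′ end, so gene length does not enter a level in counts per 1000000 reads (CPM). Where no read was found, up to 3 reads remain possible, equal to 0.445 CPM in CU5T45 and 0.861 CPM in oligo(dT)10-25.

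All 5 mRNAs were captured with both oligos, and together they made up 0.598% of all CU5T45 reads and 0.511% of all oligo(dT)10-25 reads. Sparc was the most abundant, at 15725 reads or 2334 CPM (95% exact Poisson interval 2297 to 2370) in CU5T45 and 9509 reads or 2730 CPM (2676 to 2786) in oligo(dT)10-25. Col1a2 came next in both, at 1537 CPM (1508 to 1567) in CU5T45 and 989 CPM (956 to 1022) in oligo(dT)10-25. Col3a1 was the lowest, at 418 reads or 62.0 CPM (56.2 to 68.3) in CU5T45 and 383 reads or 110 CPM (99.2 to 122) in oligo(dT)10-25.

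The remaining pair, Fn1 and Col1a1, was set apart beyond counting error in CU5T45 only. Fn1 had 8257 reads or 1225 CPM (1199 to 1252) in CU5T45 and 2189 reads or 629 CPM (602 to 655) in oligo(dT)10-25. Col1a1 had 5531 reads or 821 CPM (799 to 843) in CU5T45 and 2282 reads or 655 CPM (629 to 683) in oligo(dT)10-25. Fn1 thus lay above Col1a1 in CU5T45 with separate intervals, while their intervals overlapped in oligo(dT)10-25. The mRNAs of the type I collagen chains were also captured in different proportions. There were 0.534 Col1a1 reads for each Col1a2 read in CU5T45 (95% exact binomial interval 0.517 to 0.552) and 0.663 in oligo(dT)10-25 (0.628 to 0.699).

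The comparison of the oligos asks whether both gave the same measure of the same 3′ ends. Relative to oligo(dT)10-25, Fn1, Col1a2 and Col1a1 took a higher share of the CU5T45 reads, and Sparc and Col3a1 a lower one. The ratio of shares was 1.95 for Fn1 (exact conditional binomial 95% interval 1.86 to 2.04), 1.55 for Col1a2 (1.496 to 1.62) and 1.253 for Col1a1 (1.19 to 1.32). It was 0.855 for Sparc (0.833 to 0.877) and 0.564 for Col3a1 (0.490 to 0.650), which is 1.77-fold lower in CU5T45 (1.54 to 2.04). These 5 intervals do not overlap one another, and the genes therefore differed from each other by more than counting error in these libraries. Library preparation error is unknown, and with each position counted in place of its reads the direction turned for Col1a2 and Col3a1.

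**Figure D1:**
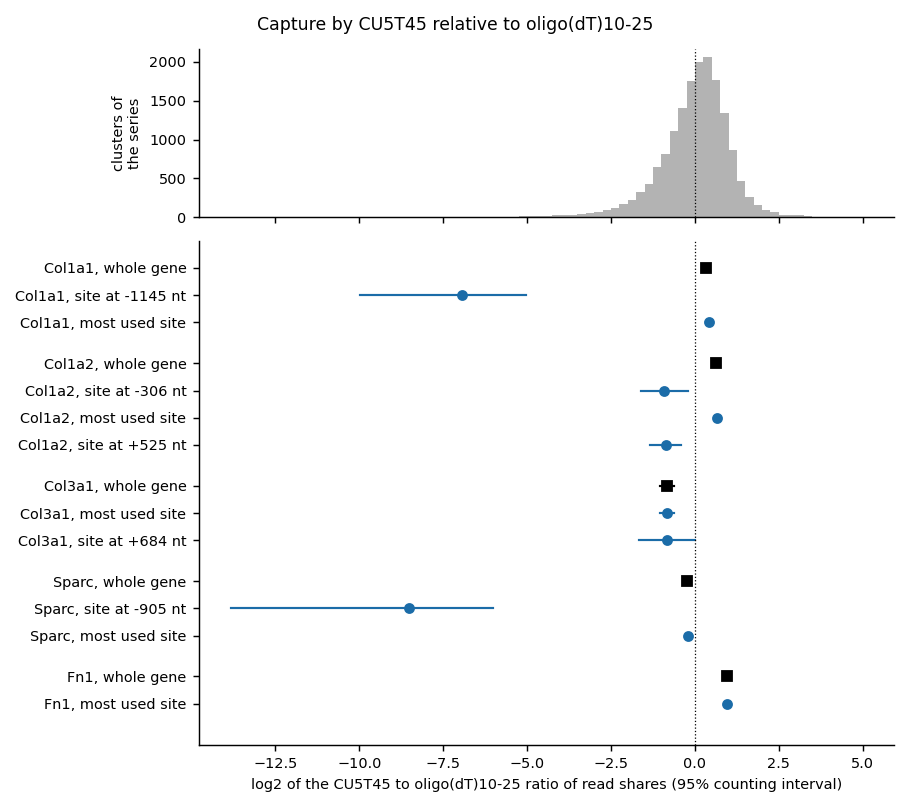
The upper panel counts the 16684 clusters of the series with 30 or more reads by the log2 ratio of their CU5T45 share to their oligo(dT)10-25 share, and the lower panel gives the ratio of each whole gene (squares) and each of its clusters of 30 or more reads (circles), with 95% counting intervals as lines. Whole genes and most used sites sit within the bulk of the histogram, while the Col1a1 site at -1145 nt and the Sparc site at -905 nt lie far to the left.

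Among the 31 clusters, 10 had 30 or more reads, and these are described one by one. The ratio excluded 1 at 9 of the 10, with 3 higher and 6 lower in CU5T45, beside 27.5% higher and 23.5% lower among all 16684 clusters with 30 or more reads. The main clusters of the 5 genes had 702 to 24988 reads over both libraries. Intervals narrow with depth, and these percentages are not matched for it. None of the 10 was 2-fold higher in CU5T45, beside 11.1% of all, and 2 were 2-fold lower, beside 14.1%. At 4-fold or more, the same 2 were lower in CU5T45, beside 4.51% of all, and 0 were higher, beside 1.75%. Both reached 30 reads only through oligo(dT)10-25, with 1 and 2 reads in CU5T45. The count of lower clusters is therefore not read as a result about the 5 genes. The median ratio of all 16684 was 1.08, with quartiles at 0.689 and 1.55, so the gene ratios of Col1a1 and Sparc lie between the quartiles, those of Fn1 and Col3a1 outside, and that of Col1a2 just above the upper one. The other 21 clusters of the 5 genes had 3 to 18 reads each, with 86 CU5T45 and 65 oligo(dT)10-25 reads in all.

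Each gene used mainly 1 cleavage site. All 5 had minor clusters upstream of it, and Col1a2 and Col3a1 also had some downstream. Fn1 was the simplest. Its cluster at chromosome 1, position 71632095, had 8241 of the 8257 CU5T45 reads, 99.8% (95% Clopper-Pearson interval 99.7 to 99.9), and 2176 of the 2189 oligo(dT)10-25 reads, 99.4% (99.0 to 99.7). The other 2 Fn1 clusters had 3 and 3 reads at 104 nt upstream and 2 and 2 reads at 5296 nt upstream, CU5T45 and oligo(dT)10-25 in that order.

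Sparc had a second cluster that was seen almost entirely with oligo(dT)10-25. No sequence was examined there, so whether it is a poly(A) site was not tested. Its main cluster at chromosome 11, position 55208001, took 99.8% of Sparc reads with CU5T45 (99.7 to 99.9) and 97.7% with oligo(dT)10-25 (97.4 to 98.0). The cluster 905 nt upstream, with its peak at 55208906, had 1 read with CU5T45 and 190 with oligo(dT)10-25, which put the ratio at 0.00272 (0.000069 to 0.0153). That ratio lies at percentile 0.0180 of the 16684 clusters. It was a broad cluster of 20 positions over 65 nt, and the most used of them held 39.5% of its oligo(dT)10-25 reads (32.5 to 46.8). The CU5T45 read fell on another position of the cluster, while the peak had 0 and 75 reads. Of its small neighbours, the cluster 944 nt upstream had 2 and 8 reads (ratio 0.129, 0.0134 to 0.647) and the one 714 nt upstream 7 and 11 reads (ratio 0.329, 0.108 to 0.929), both also lower in CU5T45. Both have fewer than the 30 reads set for a ratio. At the other small Sparc clusters the interval included 1. They had 2 and 2 reads 301 nt upstream, 4 and 0 at 260 nt, and 3 and 0 at both 104 and 12024 nt.

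Col1a1 had a cluster of the same kind but of another shape, and whether it is a poly(A) site was likewise not tested. The main cluster at chromosome 11, position 94814355, took 99.2% of Col1a1 reads with CU5T45 (98.9 to 99.4) and 93.4% with oligo(dT)10-25 (92.3 to 94.4). The cluster 1145 nt upstream, at 94813210, had 2 reads with CU5T45 and 126 with oligo(dT)10-25, for a ratio of 0.00820 (0.000983 to 0.0303), at percentile 0.0839. The limits given for the Sparc percentile hold for this one too. It made up 0.0362% of the Col1a1 reads in CU5T45 (0.00438 to 0.131) and 5.52% in oligo(dT)10-25 (4.62 to 6.54). All but 1 of its reads lay at a single position, with 2 reads in CU5T45 and 125 in oligo(dT)10-25. Small clusters a little further upstream showed no such gap, with 7 CU5T45 and 2 oligo(dT)10-25 reads at 94813143 and 11 and 5 reads at 94813051. Over the main cluster alone the Col1a1 ratio was 1.33 (1.26 to 1.40), above that of the whole window.

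Col1a2 had minor sites on both sides of the main one, and both had a larger share with oligo(dT)10-25. The main cluster at chromosome 6, position 4491009, had 10215 reads with CU5T45 and 3319 with oligo(dT)10-25, 98.6% (98.4 to 98.8) and 96.4% (95.7 to 97.0) of the gene. The cluster 306 nt upstream, at 4490703, had 37 and 36 reads, 0.357% (0.252 to 0.492) and 1.05% (0.733 to 1.44). The cluster 525 nt downstream, at 4491534, had 79 and 75 reads, 0.763% (0.604 to 0.950) and 2.18% (1.72 to 2.72). The odds of the downstream site against the rest of the gene were 2.90-fold lower in CU5T45 (exact conditional 95% interval 2.08 to 4.03), and those of the upstream site 2.95-fold lower (1.81 to 4.80). Between the libraries, the relative use of the minor sites thus differed by more than counting error. On the scale of library shares the downstream site was 1.84-fold (1.32 to 2.55) and the upstream site 1.88-fold (1.16 to 3.06) lower in CU5T45, while the main one was higher by a factor of 1.59 (1.53 to 1.65). The downstream cluster is 66 nt wide and includes a position 25 nt before its peak with 2 and 16 reads. Its peak alone had 72 and 56 reads, 1.50-fold lower in CU5T45 (1.04 to 2.16). The upstream site's peak had 33 and 35 reads, 2.05-fold lower (1.24 to 3.41).

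Col3a1 had the highest relative use of a second site, and at this gene the oligos gave the same proportions within counting error. In oligo(dT)10-25 the interval of that use overlapped the 5.52% (4.62 to 6.54) of the Col1a1 cluster 1145 nt upstream. The main cluster at chromosome 1, position 45405864, had 365 reads with CU5T45 and 337 with oligo(dT)10-25, 87.3% (83.7 to 90.4) and 88.0% (84.3 to 91.1) of the gene. A cluster 684 nt downstream, at 45406548, had 27 and 25 reads, 6.46% (4.30 to 9.26) and 6.53% (4.27 to 9.49). The odds ratio of that distal site between CU5T45 and oligo(dT)10-25 was 0.989 (0.541 to 1.81), an interval that leaves room for a difference of up to 1.85-fold. A single position 97 nt upstream of the main one had 7 and 7 reads. The main site's ratio of shares was 0.560 (0.481 to 0.651) and the distal site's 0.558 (0.312 to 1.00), so both lay at the level of the whole gene.

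**Figure D2:**
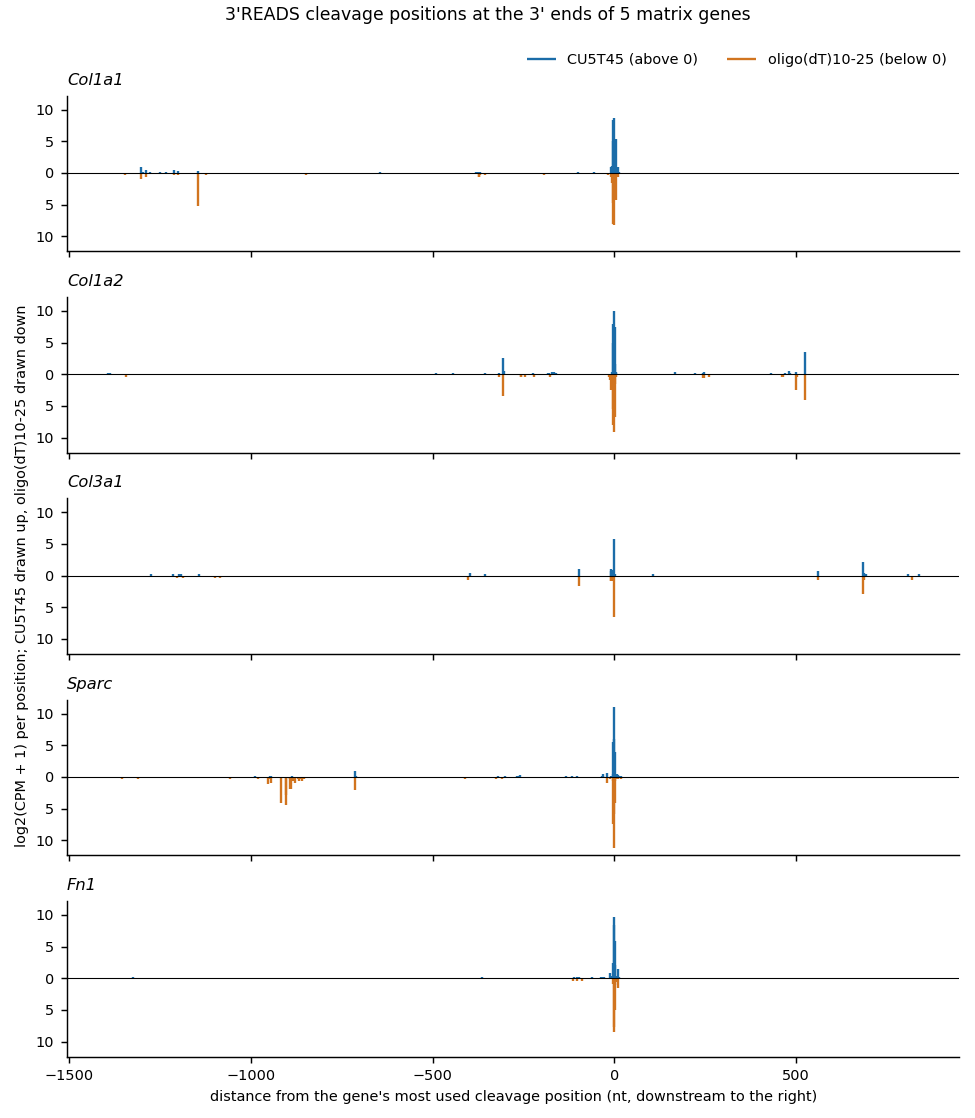
Each line is 1 cleavage position within 1400 nt upstream and 1000 nt downstream of the gene's most used position, with log2(CPM + 1) in CU5T45 drawn upward and in oligo(dT)10-25 drawn downward. Col1a2 and Col3a1 show minor sites in both libraries, and the Col1a1 line at -1145 nt and the Sparc lines around -905 nt stand out below the axis only.

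Within the main clusters, cleavage was sharp at Col3a1 and Sparc and split over several positions at Col1a1, Col1a2 and Fn1. The most used position held 95.1% of the main cluster's reads in CU5T45 and 97.3% in oligo(dT)10-25 at Col3a1, and 94.2% and 90.2% at Sparc. The shares were 68.8% and 55.9% at Col1a2, 67.6% and 59.8% at Fn1, and 47.99% and 48.3% at Col1a1. For scale, the median over 3903 nuclear clusters with 100 or more reads in each library was 75.8% in CU5T45 and 76.1% in oligo(dT)10-25. The same position was the most used in both libraries at all 5 genes.

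Col1a1 had a doublet. The positions at 0 and 5 nt upstream had 2633 and 2296 reads in CU5T45, and 1029 and 918 reads in oligo(dT)10-25. The upstream partner therefore held 41.9% of the cluster in CU5T45 and 43.1% in oligo(dT)10-25. A minor position 4 nt downstream had 268 reads with CU5T45 and 62 with oligo(dT)10-25 (ratio 2.23, 1.69 to 2.99), above the 1.32 (1.23 to 1.42) of the most used one.

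At Col1a2 the difference between the oligos lay in the balance of neighbouring nucleotides. The most used position had 7033 reads with CU5T45 and 1855 with oligo(dT)10-25 (ratio 1.96, 1.86 to 2.06). The position 3 nt upstream had 1719 and 871 reads, a ratio of 1.02 (0.940 to 1.11), and the one 4 nt upstream 208 and 160 reads, a ratio of 0.672 (0.544 to 0.831). Further upstream by 8 nt there were 0 and 16 reads. Downstream by 3 nt there were 1150 and 357 reads, a ratio of 1.66 (1.48 to 1.88). The share of the most used position differed by 12.96 percentage points, a difference larger than at 90.8% of the 3903 clusters. The difference at Fn1, Sparc, Col3a1 and Col1a1 was larger than at 78.4%, 57.7%, 40.5% and 7.33% of them. Clusters entered this comparison from 100 reads in each library, and these percentages are not matched for depth.

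At Fn1 and Sparc, neighbours upstream had lower or higher ratios than the most used position. At Fn1 the most used position had 5569 and 1301 reads (ratio 2.21, 2.08 to 2.35), and the one 2 nt upstream 2208 and 749 (ratio 1.52, 1.40 to 1.66). At Sparc the most used position had 14786 and 8381 reads (ratio 0.912, 0.888 to 0.937). The position 4 nt upstream of it had 292 and 609 reads, 4.04-fold lower in CU5T45 (3.50 to 4.66), and took 1.86% and 6.55% of the cluster. The position 1 nt upstream at Sparc went the other way, with 422 and 190 reads and a ratio of 1.15 (0.965 to 1.37). At Fn1 the position 3 nt upstream had 30 and 3 reads, a ratio of 5.17 (1.61 to 26.5). Of the 26 positions of the 5 genes with 30 or more reads, 4 were 4-fold lower and 1 was 4-fold higher in CU5T45. In the series, 4.40% and 2.66% of 24272 such positions were. The lower ones included Col1a1 94813210 (2 and 125 reads), Sparc 55208906 (0 and 75) and Sparc 55208918 (0 and 55). All but the Sparc position 4 nt upstream lay in the 2 clusters already given as 4-fold lower. Those in the clusters reached 30 reads only through the other oligo, and positions of 1 cluster are not independent. The count of lower positions thus largely repeats the cluster count and is not read as an excess over 4.40%.

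**Figure D3:**
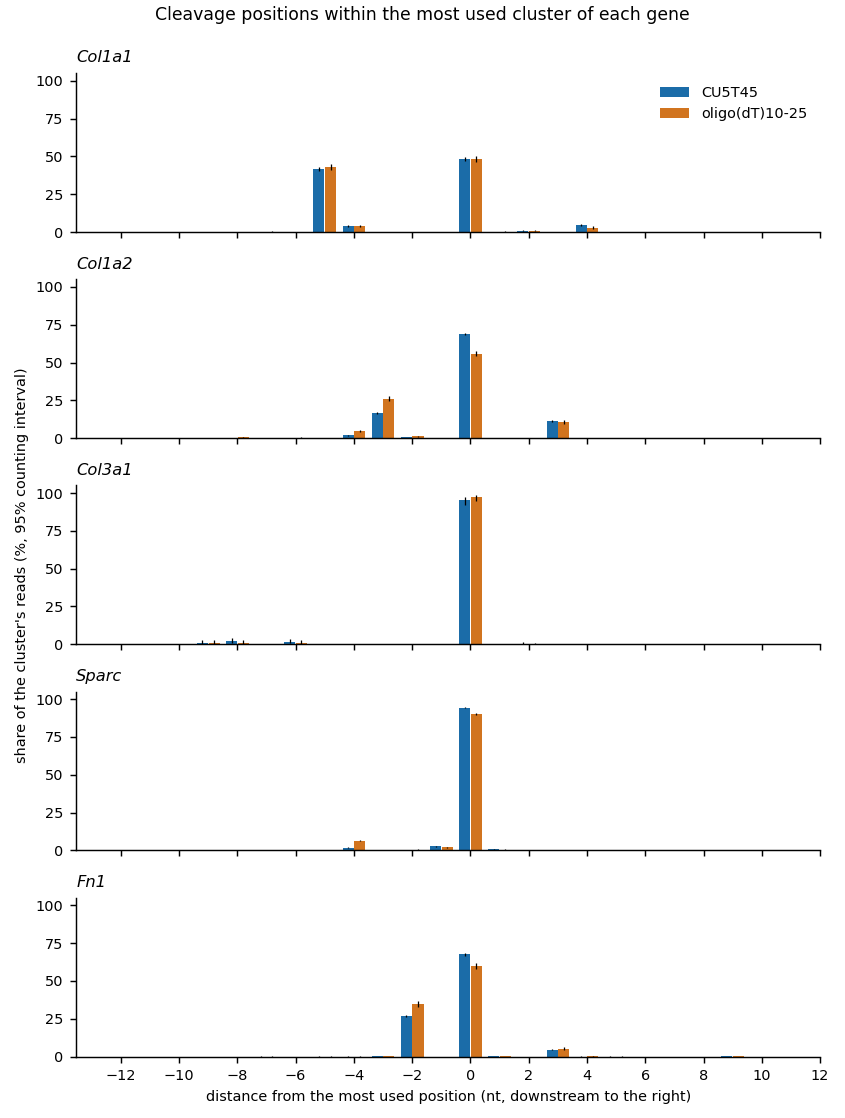
Bars give the share of the main cluster's reads at each position within 12 nt of the most used one, for CU5T45 (left bar) and oligo(dT)10-25 (right bar) of each gene, with 95% counting intervals. Sparc and Col3a1 are near 1 position, Col1a1 is a doublet, and the positions 3 nt upstream at Col1a2 and 2 nt upstream at Fn1 are taller in oligo(dT)10-25.

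CstF64 CLIP was then counted in the same windows, as distinct alignments by their midpoint. C2C12 cells are a different source of RNA from the pool, and CLIP was not divided by the amount of RNA, so a count is no measure of binding per transcript. Over the whole series the replicates differed by less than sampling noise, their counts near 6392 clusters giving a chi-square that, divided by its degrees of freedom, was 0.232. They are counted as 1 sample, and their likeness is no measure of replication.

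All 5 genes carried CLIP alignments on their own strand and next to none on the other. Fn1 had the most, 1005 in replicate 1 and 1249 in replicate 2, against 2 and 1 on the opposite strand. Sparc had 554 and 699, Col1a2 464 and 530, and Col3a1 380 and 454, while the opposite strand had at most 4 in any of them. Col1a1 had 47 (95% exact Poisson interval 34.5 to 62.5) and 58 (44.0 to 74.98), the fewest. Per 1000 nt of window this was 20.1 and 25.4 at Sparc, 14.6 and 18.1 at Fn1, 12.4 and 14.1 at Col1a2, 9.62 and 11.5 at Col3a1, and 2.54 and 3.13 at Col1a1. The type I collagen chains thus differed in CLIP, with Col1a2 having 464 alignments in replicate 1 where Col1a1 had 47, at 10358 and 5531 CU5T45 reads of the genes. Col3a1 had 380 alignments in that replicate at 418 CU5T45 reads. Those reads are of the pool, and the mRNA levels in C2C12 were not measured, so these pairs give no CLIP rate per mRNA.

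In the 2000 nt before the main site, alignments were denser than the mean of the window further upstream, most clearly at Col1a2 and least at Fn1, but that mean hides dense stretches of the gene bodies. In the 2000 nt before the main cleavage position Col1a2 had 69.5 and 81.5 alignments per 1000 nt, against 7.44 and 8.20 further upstream. Sparc had 80.5 and 104 there, against 14.7 and 18.6 upstream. Col3a1 had 33.0 and 38.5, against 6.86 and 8.34, and Col1a1 had 9 and 10, against 1.37 and 1.95. At Fn1 the densities were 19.5 and 24.5, against 14.4 and 17.9 upstream, and only 3.88% and 3.92% of its alignments lay in those 2000 nt. The densest 2000 nt further upstream was a stretch picked for its count. At Fn1 it lay from 60250 to 58250 nt upstream and had 50.5 and 61 per 1000 nt, more than before the main site. At Col3a1 it lay from 34000 to 32000 nt upstream and had 35 and 40, close to the 33.0 and 38.5 before the main site. At Sparc it had 73.5 and 85.5, at Col1a2 32.5 and 36 and at Col1a1 3 and 7, fewer than in the 2000 nt before the main site. Alignments also lay past the main site, at 48.3 and 59.02 per 1000 nt at Col1a2 and 41.6 and 47.7 at Col3a1, where a downstream site exists, and at 33.97 and 35.96 at Sparc, 11.8 and 20.2 at Fn1 and 6.99 in both replicates at Col1a1.

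**Figure D4:**
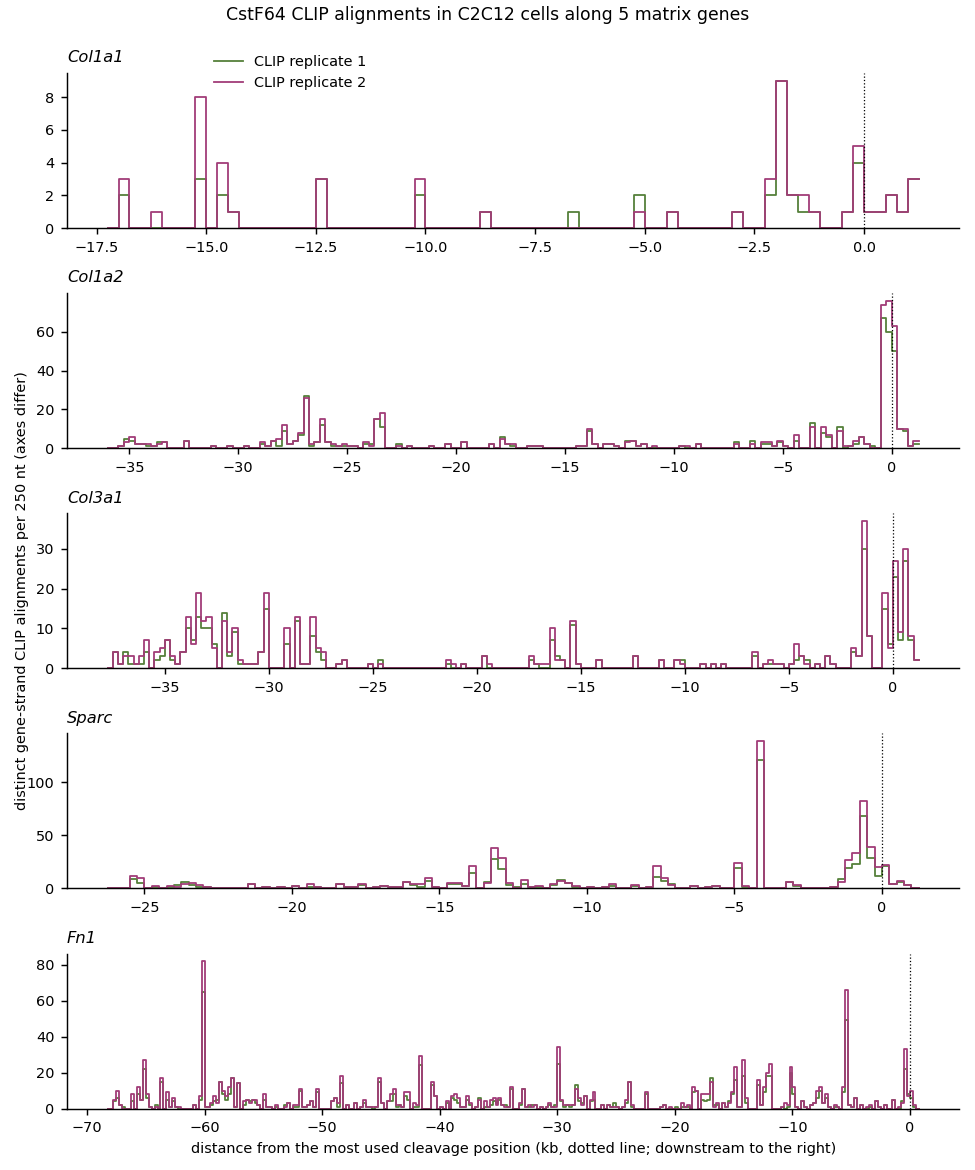
Lines give the number of distinct gene-strand CLIP alignments per 250 nt in replicates 1 and 2 along each window, with the most used cleavage position at 0 kb and the vertical scale set for each gene. Col1a2 piles up at its 3′ end, and Sparc has its highest bin about 4 kb upstream. Fn1 alignments are scattered along its window, with runs of empty bins between them in both replicates.

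Near the cleavage sites, alignments were placed differently from gene to gene. Within 100 nt of the main site Col1a2 had 41 and 55 alignments, a mean above 98.9% of the 1441 nuclear clusters with 1000 or more reads. Of these, 30 and 38 were centred downstream of the cleavage position. Sparc had 21 and 27 (above 94.3%), with 18 and 17 downstream. At Fn1 there were 5 and 5, all upstream, and at Col1a1 3 and 5, with 1 and 1 downstream, while the median of those 1441 clusters was 1.5. At Col3a1, whose main cluster has fewer than 1000 reads, there were 23 and 22, with 18 and 18 downstream.

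Minor sites could carry as many alignments as main ones. The distal Col3a1 site, with 27 and 25 cleavage reads in CU5T45 and oligo(dT)10-25, had 22 and 25 CLIP alignments within 100 nt, all downstream of it. The upstream Col1a2 site had 53 and 57, of which 48 and 53 were upstream of its position, and the downstream Col1a2 site 8 and 10. At the sites seen mostly with oligo(dT)10-25 the counts differed, with 20 and 30 at the Sparc site and 1 and 1 at the Col1a1 site. Windows of neighbouring Sparc clusters overlap, so some alignments there count for more than 1 cluster.

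Several of the densest CLIP stretches lay away from main sites, and others lay at or near them. At Sparc the 100 nt from 55212100 to 55212199 held 120 and 138 alignments, 21.7% and 19.7% of the gene's total, 3205 nt from the nearest cluster. The second Sparc stretch, from 55208500 to 55208599, held 28 and 41 and was centred 549 nt upstream of the main site. At Fn1 the densest lay from 71692200 to 71692299, about 60155 nt upstream of the main site, with 35 and 47, followed by its neighbour with 30 and 35. At Col3a1 the densest, from 45404500 to 45404599, held 30 and 37 and was centred 1314 nt upstream of the main site. The second Col3a1 stretch, from 45405800 to 45405899, held 20 and 19 and was centred 14 nt upstream of the main site. The Col1a2 stretches were at the 3′ end, from 4490800 to 4490899 with 46 and 56 and from 4490600 to 4490699 with 48 and 53. Those of Col1a1 held at most 5 alignments in either replicate, from 94812400 to 94812599. Counted together, alignments within 100 nt of any cluster were 35.6% and 37.4% of the total at Col1a2, 34.04% and 32.8% at Col1a1, 26.1% and 24.4% at Col3a1, 22.9% and 22.6% at Sparc and 5.47% and 5.68% at Fn1. At Fn1, 48 of 55 and 64 of 71 of these lay near the cluster of 2 and 2 cleavage reads 5296 nt upstream. Around clusters of 30 or more reads alone, the mean of both replicates was 22.5% at Col1a2, 9.43% at Col1a1, 11.1% at Col3a1, 7.78% at Sparc and 0.449% at Fn1. The stretches around all clusters covered 2.42%, 6.29%, 2.94%, 4.12% and 0.733% of the windows in the same order. Those around clusters of 30 or more reads alone cover less, by an amount not computed, so their CLIP shares cannot be set against these percentages.

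**Figure D5:**
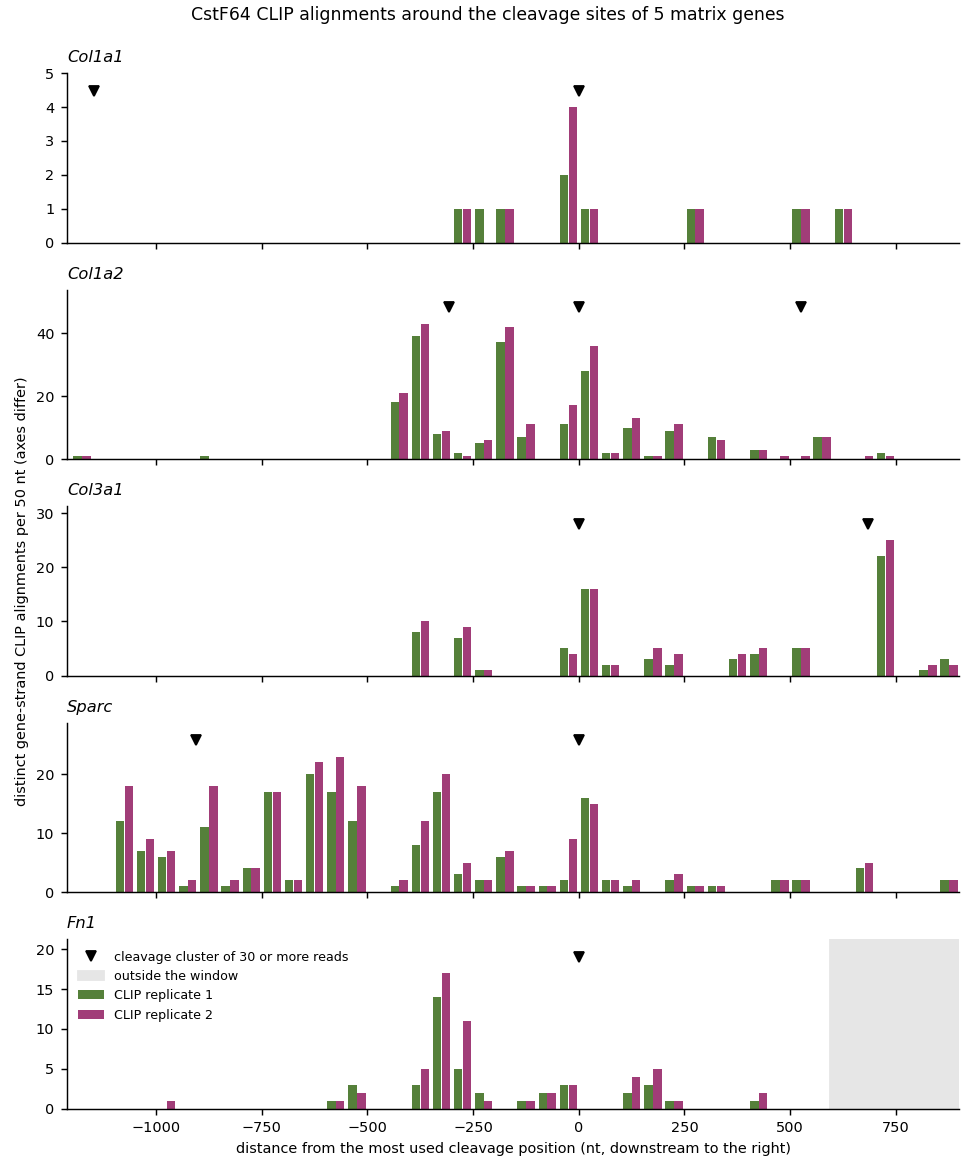
Bars give distinct gene-strand CLIP alignments per 50 nt around the most used cleavage position of each gene in replicates 1 and 2, and triangles mark cleavage clusters of 30 or more reads. At Col3a1 the 50 nt just after the main site hold 16 alignments in each replicate and those from 700 to 750 nt hold 22 and 25, while Fn1 has its highest bars between 350 and 250 nt upstream and is not shown beyond its window (grey).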

How the data were processed

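Fragments of poly(A) RNA were captured, ligated to adapters, amplified over 12 PCR cycles and read for 72 nt, per the labels' protocols. The submitters' processing notes name mm9, Bowtie and Novoalign, and read filters are not given in the sources used here. The authors deposited whole-number read counts, 1 line per cleavage position or per distinct CLIP alignment, without stated normalization. Positions are exact to within 1 nt, as the counting origin is not stated. Cleavage positions were chained at 24 nt after adding up both 3'READS libraries. Clusters with 30 or more reads, or 5% of a gene's reads in either library, are named, and the 2 densest CLIP stretches of each gene. The Fn1 cluster 5296 nt upstream and the other small clusters given with values were chosen after these were seen. The genes and lists were chosen with earlier results of these data known. Other matrix genes, and sequences at the sites, were not analysed here, because no mm9 genome or annotation was used. Software was scipy 1.17.1, pandas 2.3.3, numpy 2.4.6 and matplotlib 3.10.9 under Python 3.11.15.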

Additional observations from a re-analysis of the deposited data

How the results depend on the processing

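For 40 values, 180 alternatives were computed, and 130 stayed within the counting interval of the value (or within 1.5 times a number of clusters). With each position counted a single time, the ratio of shares turned to 0.989 at Col1a2 and to 1.04 at Col3a1, and was 1.06 at Col1a1, 0.714 at Sparc and 1.19 at Fn1. The share of positions in the main cluster, for CU5T45 and oligo(dT)10-25, was then 25.6% and 32.3% at Col1a1, 22.5% and 38.7% at Col1a2, 21.7% and 23.5% at Col3a1, 43.9% and 29.5% at Sparc and 51.6% and 35.0% at Fn1. This count drops read depth by construction. The Col1a1 ratio was 1.33 over its main cluster, and the Sparc ratio 0.830 without mitochondrial reads. Without a read minimum Col1a1, Col1a2, Col3a1, Sparc and Fn1 had 29, 20, 18, 18 and 22 clusters, and with a minimum of 10 reads 4, 3, 3, 4 and 1. Thinning CU5T45 left 5 clusters at Sparc. CLIP reads in place of alignments gave 563.5 at Col1a2, 472.5 at Col3a1, 707 at Sparc and 1243 at Fn1, as means of both replicates. Leaving out a CLIP replicate gave 554 to 699 at Sparc and 1005 to 1249 at Fn1. The CLIP share within 50 nt of a cluster was 17.1% at Col1a1, 27.1% at Col1a2, 14.9% at Col3a1 and 14.9% at Sparc, and within 200 nt 43.1% at Col1a2, 30.9% at Col3a1, 31.9% at Sparc and 7.24% at Fn1. Around clusters of 30 or more reads alone it was 9.43% at Col1a1, 22.5% at Col1a2, 11.1% at Col3a1, 7.78% at Sparc and 0.449% at Fn1. Placed by 5′ end it was 18.6% at Col3a1. Wider or fewer windows move that share by construction. No paired analysis was possible because the oligos were compared at 1 library each, and CLIP was compared with no other group. Nothing here measures the error of library preparation, and the Sparc and Col1a1 sites with 1 and 2 CU5T45 reads rest on those few reads.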

Other observations

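Scattered reads lay along the gene bodies. More than 2000 nt upstream of the main site there were 15 cleavage positions at Col1a1, 8 at Col1a2, 5 at Col3a1, 10 at Sparc and 19 at Fn1, most of 1 read, those of the small Sparc and Fn1 clusters included. The Sparc stretch from 55212100 to 55212199 with most CLIP alignments held 2 of them, with 2 CU5T45 reads and 0 oligo(dT)10-25 reads, and the densest Fn1 stretch held 1, with 0 and 1 read. The Fn1 cluster 5296 nt upstream of the main site, at 71637391, had 2 and 2 reads and 48 and 64 CLIP alignments within 100 nt. Over all body stretches of 100 nt, a cleavage read was found in 27 of 622 with a CLIP alignment (4.34%) and in 18 of 1140 without one (1.58%). This was noticed in the data and is given as a description, since stretches of 1 gene are not independent. On the strand opposite the genes, 3'READS had 0 CU5T45 reads at all 5 genes, and oligo(dT)10-25 had 1 at Col3a1, 2 at Fn1 and 0 at the others, none above the floor of 3 reads.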
